A study of Mus musculus with 768 samples.

Results

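Among 377 single muscle stem cells sequenced for RNA, 135 cells (35.8%) had at least 1 read of *Spry1* and 242 cells had 0. All 377 cells entered, and the 2 kinds of cell were chosen by their *Spry1* count alone, so *Spry1* itself is described here and not tested. The cells were sorted for the brightest nuclear GFP from the tibialis anterior, a muscle of the lower leg, of *Tg:Pax7-nGFP* mice, in which regulatory sequence of *Pax7* drives the GFP. There were 4 young mice of 2 months (Y4, Y5, Y7 and Y8) and 2 old mice of 24 months (O1 and O5), all carrying the same transgene on a C57BL/6;DBA2 F1/JRj background, and males were preferred. Each mouse gave cells of both kinds, and the mouse was the paired replicate of every test. The sort kept the cells with most GFP, so cells with little GFP were not sampled, whereas *Pax7* mRNA itself was not sorted on. Before the sort the muscles were digested with collagenase and trypsin, and the cells were frozen and thawed. Libraries were full-length cDNA amplified by PCR without molecular identifiers, so reads of one cell are not independent molecules, and intervals cover counting error only. A cell had 101755 to 626142 reads on genes.

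*Spry1* encodes Sprouty1, an intracellular inhibitor of signalling from receptor tyrosine kinases (RTKs) such as the fibroblast growth factor (FGF) receptors, which act through RAS and the kinases MEK and ERK. In muscle, *Spry1* is known for its expression in quiescent stem cells and for the return of these cells to quiescence after injury. ERK activity induces early genes such as *Fos*, *Egr1* and *Junb*, and Sprouty, Spred and Dusp proteins are feedback inhibitors of the same route. Early genes also react to the enzymatic and mechanical stress of preparing muscle for sorting, which makes them a known mark of the isolation procedure as well.

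The promoters of *Spry1* and of 3 genes on which the comparison turned, *Junb*, *Fos* and *Myf5*, are shown so that the genes can be set side by side. Each is the 250 bases before the RefSeq start of the gene in GRCm38.p6, written along the gene's strand, with every match to one of 4 motifs in capitals. *Spry1* lies on chromosome 3 from 37639947 to 37644598 on the plus strand, and no other gene of the table starts within 20 kb of its start.
Spry1 (chr3:37639697-37639946, plus strand): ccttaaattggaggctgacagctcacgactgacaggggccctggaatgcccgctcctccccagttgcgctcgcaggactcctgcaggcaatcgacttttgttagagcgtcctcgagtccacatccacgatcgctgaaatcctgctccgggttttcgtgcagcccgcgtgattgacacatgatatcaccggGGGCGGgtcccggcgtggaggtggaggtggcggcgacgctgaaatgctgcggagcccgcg
Junb (chr8:84978749-84978998, minus strand): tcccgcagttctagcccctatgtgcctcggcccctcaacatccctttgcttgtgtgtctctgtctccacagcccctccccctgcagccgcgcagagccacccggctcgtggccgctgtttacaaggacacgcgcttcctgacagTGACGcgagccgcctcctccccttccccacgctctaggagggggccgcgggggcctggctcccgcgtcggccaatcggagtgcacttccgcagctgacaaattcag
Fos (chr12:85473640-85473889, plus strand): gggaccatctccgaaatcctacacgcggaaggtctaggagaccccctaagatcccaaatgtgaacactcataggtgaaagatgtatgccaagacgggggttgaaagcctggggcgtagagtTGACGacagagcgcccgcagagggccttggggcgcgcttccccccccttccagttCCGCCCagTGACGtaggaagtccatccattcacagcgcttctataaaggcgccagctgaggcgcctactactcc
Myf5 (chr10:107486135-107486384, minus strand): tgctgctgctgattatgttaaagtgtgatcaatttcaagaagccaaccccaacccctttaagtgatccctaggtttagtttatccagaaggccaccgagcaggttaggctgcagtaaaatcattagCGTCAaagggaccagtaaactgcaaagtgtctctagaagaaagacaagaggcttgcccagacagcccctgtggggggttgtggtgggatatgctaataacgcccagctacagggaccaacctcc
The motifs searched on both strands were TGACG, the core of the cyclic AMP response element, TGANTCA, the AP-1 site bound by Fos and Jun proteins, the CArG box of serum response factor, and GGGCGG, a GC box. *Junb* and *Myf5* held 1 match to TGACG each and *Fos* held 2, whereas *Spry1* held none. Of all 32851 promoters in the same table, 17.8% had TGACG, 6.75% TGANTCA, 1.47% a CArG box and 32.7% GGGCGG. *Spry1* and *Fos* had 1 GGGCGG each. None of these promoters held TGANTCA or a CArG box in this window, and the matches did not overlap each other.

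The share of cells with a *Spry1* read ranged from 22.7% to 55% between mice. It was 55% (33 of 60 cells, 95% Wilson interval 42.5% to 66.9%) in Y4, 41.9% (31 of 74, 31.3% to 53.3%) in Y7 and 38.6% (17 of 44, 25.7% to 53.4%) in Y5. In Y8 it was 22.7% (17 of 75, 14.7% to 33.3%), and in the old mice 32.4% (22 of 68, 22.4% to 44.2%) for O5 and 26.8% (15 of 56, 17% to 39.6%) for O1. The intervals of Y4 and Y8 did not overlap, so young mice differed among themselves beyond counting error, and both old mice lay inside the young range. The mean was 39.6% ± 13.3 (SD, n = 4) in young and 29.6% ± 3.93 (SD, n = 2) in old mice.

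Where *Spry1* was detected it was usually well above a single read. The 135 cells had between 1 and 1105 reads with a median of 78, which is a median of 269.4 RPM (reads scaled to the depth of the cell) and a range from 2.55 to 4210 RPM. The median of a mouse was 522.9 RPM in Y8, 507.5 in Y5, 314.2 in Y7 and 268.9 in Y4, against 206.4 in O1 and 160.6 in O5, so both old medians lay below the 4 young ones. Just inside the threshold, 2 cells had 1 read and 2 cells had 2, and 17 cells in all had fewer than 10. Y8 thus combined the smallest share with the highest median. In a cell with 0 reads, counting error alone allows up to 3 reads, which is 4.79 RPM in the deepest cell and 29.5 RPM in the shallowest. This limit treats reads as independent and does not cover transcripts lost before amplification, so a cell with 0 reads may have held more *Spry1*. After each cell was thinned to 100000 reads, 133 cells still had a *Spry1* read.

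**Figure D1:**
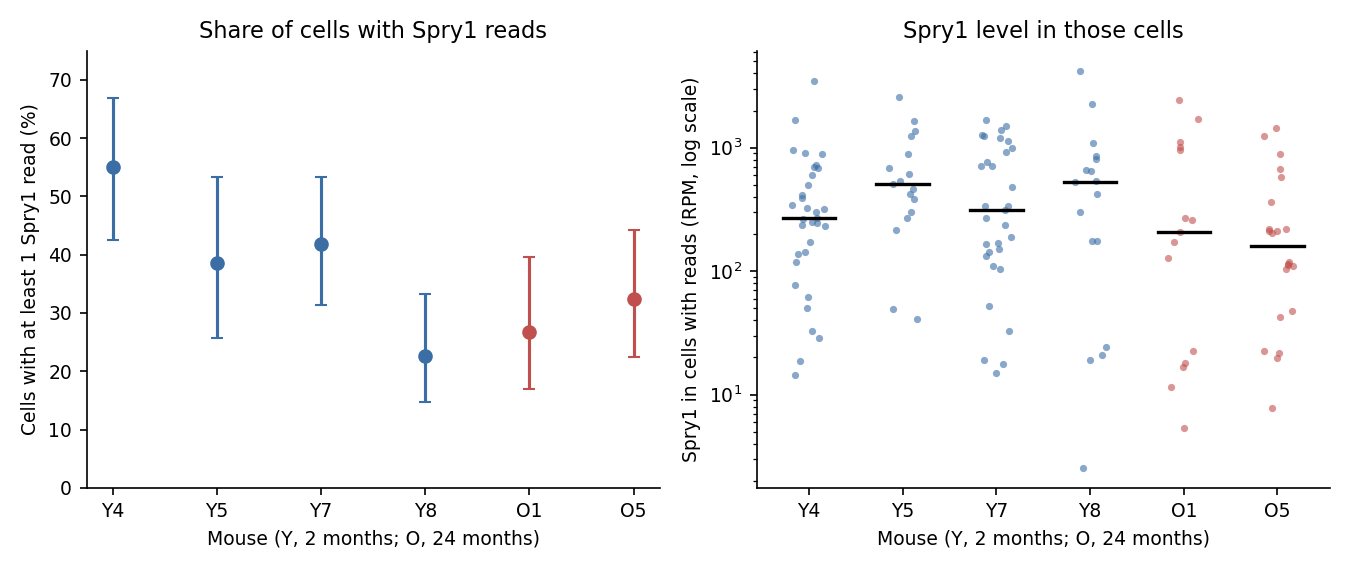
Left, percentage of cells with at least 1 Spry1 read in each mouse with its 95% Wilson interval; right, Spry1 level in RPM on a log scale in each of the 135 cells with reads, with a bar at the median of the mouse. Young mice (blue) span 22.7% to 55%, and the medians of the old mice (red), 206.4 and 160.6 RPM, lie below those of the young mice.

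Both kinds of cell had similar depth and complexity. The median number of reads per cell was 275800 ± 83960 (SD, n = 6 mice) in cells with *Spry1* reads and 271000 ± 34400 in cells without, higher in 3 mice and lower in 3. Genes detected were 1954 ± 391 against 1948 ± 253, and 1848 ± 374 against 1815 ± 256 after thinning. Ribosomal protein genes held 4.83% ± 0.656 against 4.59% ± 0.835 of the reads, higher in 5 of 6 mice. The 50 highest genes of a cell held 26.3% ± 3.44 against 26.6% ± 3.68. None of these 5 measures differed by the exact two-sided permutation test of signs over 6 mice, whose smallest p is 0.0313 (p = 0.281 for ribosomal protein genes and 0.375 to 1 for the others, adjusted p = 0.938 and above). The difference in genes detected was 6.17 ± 184 (SD, n = 6 mice).

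The cells of both kinds had the identity of muscle stem cells. *Sdc4*, a syndecan of the stem cell surface, had reads in 135 of 135 cells with *Spry1* and 241 of 242 without. *Pax7*, the transcription factor that defines the lineage, had reads in 131 and 208 cells. The adhesion genes *Cdh15* and *Itga7* were found in 80 and 72 cells with *Spry1* reads and in 128 and 109 without. *Vcam1* was found in 101 and 179 cells, *Calcr*, the calcitonin receptor of quiescent cells, in 56 and 83, and *Cd34* in 32 and 53. Of the 12 endothelial markers 7 were at 0 in all cells, among them *Cdh5* and *Kdr*, and the summed level of the list was 3.98 to 86.1 CPM (summed counts scaled to the depth of the sum) in cells with *Spry1* reads and 0.397 to 95.7 CPM in cells without. Immune markers, of which 7 of 12 were at 0, summed to at most 30.2 and 21.2 CPM. Fibroadipogenic markers reached 1151 to 3035 and 1231 to 2920 CPM, of which *Gsn* made 69.9%, while *Pdgfra*, *Dcn* and *Lum* were at 0. Mural markers summed to 1716 to 3278 and 2098 to 2745 CPM, of which *Des*, also a gene of muscle cells, made 70.4%. Schwann cell markers gave 651.3 to 1319 and 609.9 to 1010 CPM, of which *Pmp22* made 61.6%, with *Sox10* at 0. Myofibre markers summed to 2.28 to 102.6 and 49.1 to 207.5 CPM, with *Ckm* at 0, tenocyte markers to at most 154 and 92.4 CPM, and erythroid markers to at most 3.41 and 9.05 CPM. The ranges of the 2 kinds of cell overlapped for every one of these lists.

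Across genes, the reads of the cells with and of the cells without *Spry1* reads were summed within each mouse, and the paired sums were compared by edgeR's quasi-likelihood test. Of 9637 genes tested none passed an adjusted p of 0.05 (0%), while 281 (2.92%) had an unadjusted p under 0.05, 65 higher (0.674%) and 216 lower (2.24%) in the cells with *Spry1* reads. DESeq2, a second count model, called 242 genes (2.51%), 49 higher and 193 lower. These were mostly genes of few cells, with a median of 6.10% of cells having a read against 13% over all genes tested, and only 10 of them were found in at least 50% of cells. Those 10 were *Myf5*, *Junb*, *Btg2*, *Egr1*, *Fos*, *Zfp36*, *Nr4a1* and *Nfkbiz* on the higher side and *Clic4* and *Ivns1abp* on the lower side.

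The sums weigh the few cells with most reads of a gene. When instead the log2(RPM + 1) of each cell was averaged within the mouse and tested with limma, 4 genes (0.0415%) passed an adjusted p of 0.05, with *Junb* and *Myf5* higher and *Odc1* and *Asb5* lower in the cells with *Spry1* reads. On this scale 302 genes (3.13%) were higher and 280 (2.91%) lower at an unadjusted p under 0.05. The median of all genes was 0.01 on this scale but −0.31 as a log2 fold change of the sums, in which 5 of 6 mice had fewer cells with than without *Spry1* reads. Values of sums below are given beside that −0.31. It is a median over all genes tested, whose median share of cells with a read was 13%. The 81 ribosomal protein genes tested had a median log2 fold change of 0.05 in the sums, so −0.31 is not the baseline of every kind of gene.

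*Junb*, an AP-1 transcription factor induced within minutes by growth factors and stress, had the lowest p by limma on the mean log scale, while *Ctgf* and *Myf5* had lower unadjusted p than *Junb* in the sums. Its summed level in cells with and without *Spry1* reads was 2351 and 1440 CPM in Y4, 3235 and 1027 in Y5, 1673 and 1284 in Y7, 2236 and 1072 in Y8, and in the old mice 3284 and 1290 in O1 and 2572 and 1617 in O5. The cells with *Spry1* reads were higher in all 6 mice, and their lowest value, in Y7, lay above the highest value of the cells without, in O5. The share of all genes separated in this way is not given here. The mean was 2558 ± 619 CPM (SD, n = 6 mice) against 1288 ± 222, a log2 fold change of 0.97 ± 0.18 (SE) with an adjusted p of 0.975 by edgeR. Per cell, the mean log2(RPM + 1) was 8.73 ± 0.82 (SD, n = 6) against 6.47 ± 0.64, a difference of 2.26 ± 0.35 (SE, adjusted p = 0.000894 by limma). The difference was 3.77 in Y4, 2.41 in Y5, 1.52 in Y7, 0.93 in Y8, 2.05 in O1 and 2.89 in O5, and its adjusted p by limma lay between 0.000177 and 0.0229 with any 1 mouse left out, a range that also spans the other settings tried on this scale. After thinning, 82.1% ± 8.51 of cells with *Spry1* reads had a *Junb* read against 66% ± 6.45 of cells without (SD, n = 6 mice).

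*Fos*, the partner of Jun proteins in AP-1, had summed levels of 3808 CPM with and 1885 without *Spry1* reads in Y4, 7752 and 1277 in Y5, 2686 and 1082 in Y7, 3988 and 2835 in Y8, and in the old mice 4027 and 2801 in O1 and 3865 and 3167 in O5. It was higher in all 6 mice, but the groups overlapped, and Y5 had by far the widest gap. The log2 fold change was 1.02 ± 0.28 (SE) with an unadjusted p of 0.00497 and an adjusted p of 1 by edgeR. Per cell, *Fos* differed by 1.88 ± 0.46 in mean log2(RPM + 1) (SE, adjusted p = 0.19 by limma). *Egr1*, a zinc finger early gene and a classical readout of ERK activity, had 4345 and 2871 CPM in Y4, 4507 and 1960 in Y5, 1874 and 1691 in Y7, 2228 and 1433 in Y8, and in the old mice 9425 and 7080 in O1 and 6546 and 3331 in O5. In the sums it was higher with *Spry1* reads within each mouse, although mice ranged more widely than the 2 kinds of cell (log2 fold change 0.66 ± 0.14, adjusted p = 1 by edgeR). Per cell *Egr1* was higher in 5 mice and lower in Y7, at −0.82 in mean log2(RPM + 1), and its thinned detection share was 71.6% against 71%, higher in 4 mice and lower in 2. *Btg2*, an antiproliferative gene induced early and enriched in quiescent cells, gave 1542 and 692.3 CPM in Y4, 1329 and 711.9 in Y5, 434.2 and 199.7 in Y7, 198.3 and 167.8 in Y8, and in the old mice 1598 and 790.1 in O1 and 779.7 and 363.5 in O5 (log2 fold change 0.92 ± 0.18, adjusted p = 0.975 by edgeR). In the sums its gap was small in Y8 and similar in the other 5 mice. Per cell the difference of *Btg2* was −0.54 in Y8 and 0.50 (O1) to 4.22 (Y4) in the others, and its thinned detection share was higher in 4 mice and lower in 2.

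*Myf5*, the myogenic regulatory factor held ready in muscle stem cells, was the other gene higher by limma on the mean log scale. Summed levels with and without *Spry1* reads were 931.3 and 467.4 CPM in Y4, 790.3 and 430.2 in Y5, 344.6 and 144.8 in Y7, 1201.5 and 483.9 in Y8, and in the old mice 1427 and 430.1 in O1 and 468.4 and 320.5 in O5. All 6 mice were higher in the cells with *Spry1* reads, although the groups overlapped because Y7 and O5 were low for both kinds. The log2 fold change was 1.12 ± 0.20 (SE, adjusted p = 0.975 by edgeR) and the difference in mean log2(RPM + 1) was 2.21 ± 0.41 (SE, adjusted p = 0.0183 by limma). Without 1 mouse this adjusted p ranged from 0.00771 to 0.13, and the call was kept in 3 of 6 such fits. The thinned detection share was 81.1% ± 7.21 against 61.6% ± 11.1 (SD, n = 6 mice, adjusted p = 0.102 by limma on shares), higher in 6 of 6 mice.

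**Figure D2:**
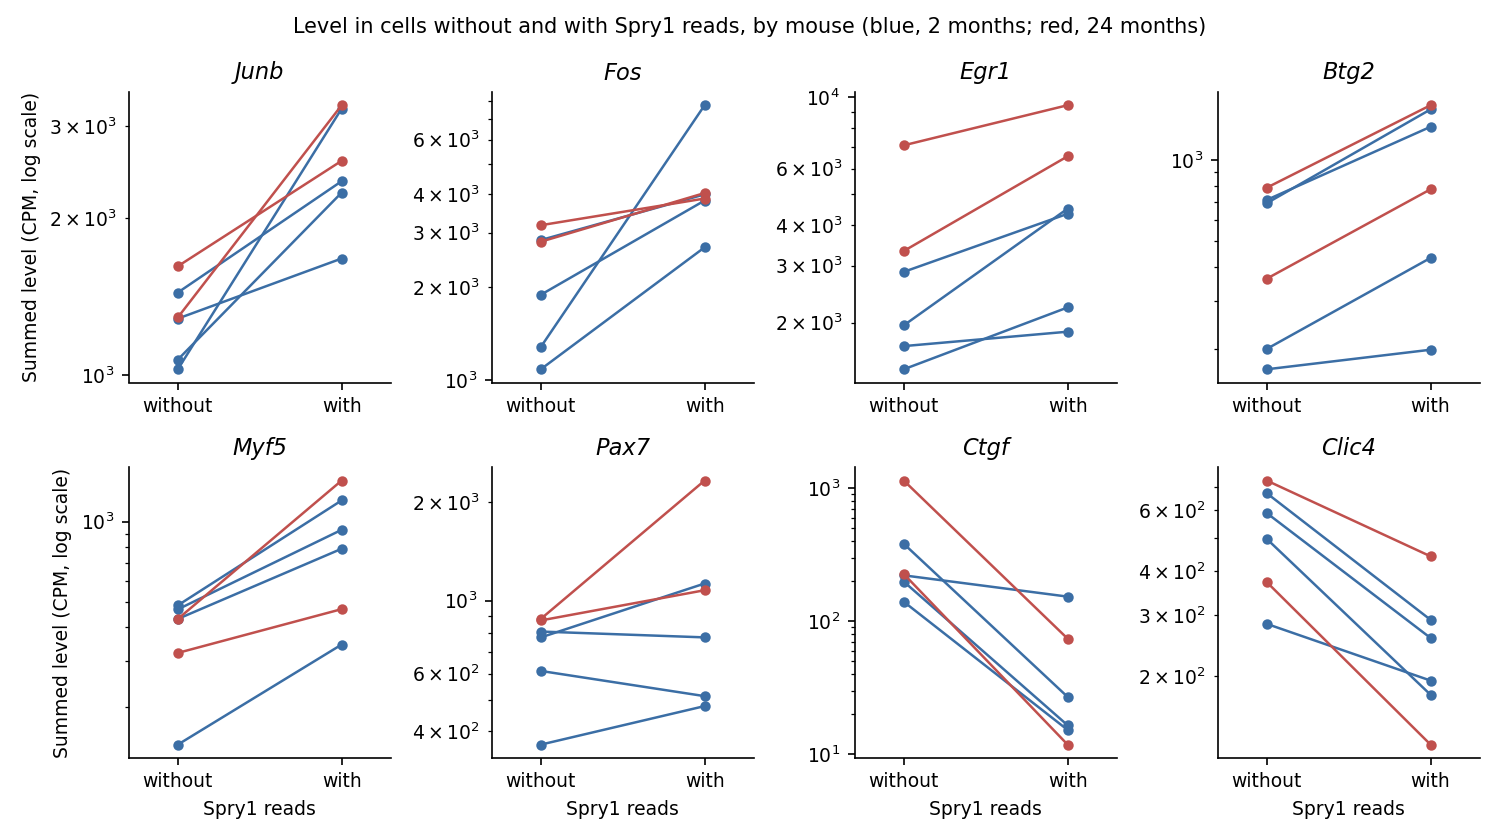
Summed level in CPM, on a log scale, of 8 genes in the cells without (left) and with (right) Spry1 reads, 1 line per mouse, young mice in blue and old mice in red. The lines of Junb, Fos, Egr1, Btg2 and Myf5 go up and those of Ctgf and Clic4 go down in all 6 mice, while Pax7 goes up in 4 and down in 2.

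Of the genes higher in all 6 mice (89 of 9637, or 0.924%, against 260 or 2.70% lower in all 6), the 10 of lowest unadjusted p also included *Bin1*, *Izumo4*, *Mtor*, *Adh1* and *Gatsl2*, none past the adjusted threshold. *Bin1*, a membrane-bending protein of muscle T-tubules, had 76.1 to 422.9 CPM with and 16.3 to 92.6 CPM without *Spry1* reads (log2 fold change 1.77 ± 0.44). *Mtor*, the growth kinase, had 56.2 to 492.9 against 15.3 to 61.2 CPM in reads of 30 and 33 cells (1.84 ± 0.52), and *Adh1*, an alcohol dehydrogenase that oxidises retinol, had 205.4 to 1163 against 126.8 to 549.6 CPM (0.82 ± 0.24). *Gatsl2*, a paralog of an arginine sensor upstream of mTOR, was found in 29 and 30 cells (1.66 ± 0.53). A single cell held 33.7% of its reads in the group with and 48.5% in the group without *Spry1* reads. Its thinned detection share was higher in 4 mice and lower in 2. *Izumo4* rested on 485 reads in 8 cells against 71 reads in 6 cells. Its level, 4.55 to 19.7 against 0 to 2.51 CPM, did not overlap between the groups, whereas the levels of the 4 other genes did.

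The list of 47 genes known to respond to cell isolation, of which 46 were tested, held most of the early genes. On the mean log scale 19 of the 46 were higher and 1 was lower at an unadjusted p under 0.05, against 3.13% and 2.91% of all genes, and the median difference was 0.57 against 0.01 over all genes. In the sums 11 were higher and none lower at that level, against 0.674% and 2.24% of all genes. The median log2 fold change was 0.28, against −0.31 over all genes and 0.05 over ribosomal protein genes. Of its members, 38 were higher on the mean log scale and 8 lower. *Jun* had 1319 to 2639 CPM with and 740.5 to 1978 without *Spry1* reads and was higher in 5 of 6 mice, all but Y8 (log2 fold change 0.71 ± 0.25). *Zfp36*, whose protein shortens the life of AU-rich mRNAs, had 921.7 to 1753 against 490.6 to 1775 CPM and was nearly equal in O1 and higher in the 5 other mice. *Nr4a1*, an orphan nuclear receptor, had 725.2 to 3113 against 195.8 to 2465 CPM and was higher in all mice but O1. *Nfkbiz*, a nuclear regulator of NF-κB, was higher in all 6 mice (259.1 to 2007 against 204.2 to 606.6 CPM). *Ier5*, of the same list, had the opposite sign, with a mean log2 difference of −1.52 ± 0.42 and a lower mean log value in all 6 mice. On that scale 131 of all genes (1.36%) were higher and 168 (1.74%) lower in every mouse, and 10 members of the list were higher and 1 was lower in every mouse. *Fosb*, in 129 of 135 and 224 of 242 cells, differed by 0.73 ± 0.22 on the mean log scale and by 0.35 in the sums. The list contains genes shared with the ERK target and quiescence lists, and whether the isolation procedure had a part in the differences was not tested.

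The detection share asks in how many cells of each mouse a gene has a read at equal depth. Among 5573 genes read in 10% or more of the thinned cells, none passed an adjusted p of 0.05 (0%), while 173 (3.10%) were higher and 157 (2.82%) lower at an unadjusted p under 0.05 by limma. The widest gaps upward after *Socs3* were *Myf5*, *Dynll2*, *Fis1* and *Klf4*. *Socs3*, a feedback inhibitor of cytokine signalling, was detected in 57.8% ± 13.9 of cells with and 36.1% ± 3.28 of cells without *Spry1* reads, with 69.7% and 40.7% in Y4, 70.6% and 33.3% in Y5, 54.8% and 32.6% in Y7, 35.3% and 34.5% in Y8, and in the old mice 66.7% and 36.6% in O1 and 50.0% and 39.1% in O5. The share was thus near equal in Y8 and higher with *Spry1* reads in the 5 other mice. In Y8 the sums of *Socs3* were lower with *Spry1* reads (238.1 against 442.6 CPM). So was its mean log2(RPM + 1) there, with a difference of −0.61, whereas the 5 other mice were higher on both scales. *Dynll2*, a dynein light chain, had 32.3% against 15.0%, *Fis1*, a mitochondrial fission protein, 43.5% against 26.6% with O5 in the opposite direction, and *Klf4*, an early transcription factor that restrains proliferation, 72.7% against 56%. In the sums of reads *Fis1* and *Klf4* differed little (log2 fold change 0.28 ± 0.35 and 0.15 ± 0.38).

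Downward, *Nktr* had the widest gap, with 22.4% ± 10.5 of cells with and 44% ± 11.7 of cells without *Spry1* reads. This gene of a cyclophilin-related protein was lower in all 6 mice, from 38.7% against 51.2% in Y7 to 22.7% against 58.7% in O5. *Svep1*, a large secreted adhesion protein, was found in 34.2% against 54.7%, *Atp13a3*, a polyamine transporter, in 28.9% against 47%, *Usp24*, a deubiquitinase, in 6.64% against 23.1%, and *Txn1*, thioredoxin, in 57.3% against 73.7%, each lower in 6 of 6 mice. In the sums *Svep1* was higher in 3 mice and lower in 3 (605.1 ± 629 against 530.9 ± 198 CPM, log2 fold change −0.46 ± 0.45), with −1.02 in young and 0.62 in old mice. There *Nktr* was higher with *Spry1* reads in Y7 (123.8 against 97.7 CPM), *Atp13a3* in Y4 (351.6 against 217.8) and *Usp24* in Y7 (26.9 against 16.6). Each of these was lower in the 5 other mice, and *Txn1* was lower in all 6. Adjusted p-values of these 5 by limma lay between 0.235 and 0.561. Lower in every mouse by this measure were 1.97% of the genes tested and higher in every mouse 1.67%.

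Quiescence genes were described next, as *Spry1* itself belongs with them. Of 56 listed genes 52 were tested, and 7 were higher and 2 lower on the mean log scale at an unadjusted p under 0.05, against 3.13% and 2.91% of all genes, with a median difference of 0.25 against 0.01. In the sums 2 (*Btg2* and *Gas1*) were higher and 1 (*Sdc4*) lower at that level, against 0.674% and 2.24% of all genes. The median was 0.04, against −0.31 over all genes and 0.05 over ribosomal protein genes, so in the sums the list was not raised beside the latter. Ribosomal protein genes had a median of 0.05 on the mean log scale, below the 0.25 of the list. In detection share the medians were 3.58 points for the list and 0.28 for ribosomal protein genes. None passed the adjusted threshold by either test, and *Btg2* is also on the isolation list. *Pax7* had 1128 CPM with and 773.1 without *Spry1* reads in Y4, 512.3 and 611.2 in Y5, 773.4 and 805.7 in Y7, 477.8 and 364.7 in Y8, and in the old mice 2322 and 880.1 in O1 and 1076 and 870.9 in O5. It was higher in 4 mice and lower in 2, both young, with a log2 fold change of 0.38 ± 0.22. Per cell the difference of *Pax7* was 1.32 ± 0.33 in mean log2(RPM + 1) (adjusted p = 0.233 by limma), and the thinned share of cells with a read, 94.3% ± 5.19 against 85% ± 7.28, was higher in all 6 mice. *Gas1*, a membrane protein that arrests growth, had 1463 and 1115 CPM in Y4, 599.3 and 686.5 in Y5, 498.3 and 341.4 in Y7, 1829 and 934.8 in Y8, and in the old mice 341.9 and 84.6 in O1 and 404.9 and 209.3 in O5. It was higher in all mice but Y5 (log2 fold change 0.77 ± 0.27). The co-receptor *Tgfbr3* was detected in 77.4% of cells with and 62.2% of cells without *Spry1* reads, and *Cav1*, the caveolin of membrane caveolae, in 81.9% and 70.9%, each higher in 6 of 6 mice. *Calcr* (log2 fold change 0.65 ± 0.58), *Cd34* (−0.17 ± 1.01) and *Vcam1* (−0.59 ± 0.29) did not pass the test. *Vcam1* was 558.6 against 1771 CPM in O1 and 852.1 against 2192 in O5, and in the young mice 897.5 against 613.0 in Y4, 1710 against 2042 in Y5, 1398 against 1382 in Y7 and 1104 against 1981 in Y8. It was thus lower in 4 of 6 mice, near equal in Y7 and higher in Y4.

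The genes of the pathway that Sprouty1 restrains were taken by role. Of 31 RTK ligands 10 passed the filter on low counts, and none of these had an unadjusted p under 0.05 on either scale. *Fgf2* was read in 4 cells with and 10 cells without *Spry1* reads, and *Hgf* in 5 and 3 cells. Of 23 receptors and co-receptors 17 were tested. *Fgfr1*, found in 124 of 135 and 220 of 242 cells, had 1195 ± 445 CPM with and 1233 ± 346 CPM without *Spry1* reads (SD, n = 6 mice), and *Fgfr4* had 476.5 ± 109 and 406.5 ± 158 CPM. Their log2 fold changes of −0.07 ± 0.18 and 0.28 ± 0.19 were within 2 standard errors of 0. Only that of *Fgfr1* was also within 2 standard errors of the −0.31 of all genes. The FGF co-receptor *Sdc4* had 6251 ± 2165 and 7599 ± 2583 CPM, lower in 4 of 6 mice. Its log2 fold change of −0.27 ± 0.11 was near the −0.31 of all genes, which is not the baseline of every kind of gene. On the mean log scale, where the median of all genes was 0.01, *Sdc4* differed by −0.51 ± 0.15 (SE). It was lower there in 5 of 6 mice (unadjusted p = 0.00126 and adjusted p = 0.476 by limma). *Sdc1* was read in 2 cells with and 9 without *Spry1* reads. The relay from GRB2 to ERK had 26 tested genes of 30, with 1 higher and none lower on the mean log scale at an unadjusted p under 0.05, against 3.13% and 2.91% of all genes. That gene, *Gab1*, a docking protein of activated receptors, had 96.1 to 148.3 CPM with and 14.9 to 213.9 CPM without *Spry1* reads.

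Among the inhibitors of the pathway, 28 of 33 listed genes were tested, and 1 was higher and 1 lower at an unadjusted p under 0.05 on the mean log scale, against 3.13% and 2.91% of all genes, with a median of 0.09. *Spry2*, the paralog of *Spry1*, had 48.3 and 67.2 CPM in Y4, 21.5 and 100.8 in Y5, 67.7 and 178.1 in Y7, 72.3 and 91.4 in Y8, and in the old mice 0 and 80 in O1 and 2.56 and 1.62 in O5. It was thus lower in the cells with *Spry1* reads in 5 mice, and was detected in 28.1% against 38.8% of thinned cells, but its log2 fold change of −1.40 ± 1.14 did not pass the test. *Spry4* was read in 23 and 29 cells and *Dusp6*, an ERK phosphatase, in 18 and 26. *Spred1* (log2 fold change −0.23 ± 0.49), *Spred2* (−0.57 ± 1.12) and *Dusp6* (0.10 ± 1.01) had standard errors larger than their differences. *Dusp5*, a nuclear ERK phosphatase, had a mean log2 difference of −1.01 ± 0.40, and *Nf1*, the RAS-inactivating neurofibromin, one of 0.79 ± 0.39. In the sums the inhibitor with an unadjusted p under 0.05 was *Pea15a*, which holds ERK in the cytoplasm (log2 fold change −0.78 ± 0.33). *Spry3* is not in the table.

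Targets of ERK signalling were 25, of which 22 were tested. On the mean log scale 6 were higher and 1 was lower at an unadjusted p under 0.05, against 3.13% and 2.91% of all genes, and the median was 0.30 against 0.01. The 6 were *Fos*, *Egr1*, *Egr2*, *Egr3*, *Ier3* and *Mcl1*, all of which are also on the isolation list, and the lower one was *Emp1*. *Egr2* had 119.3 to 878.4 CPM with and 47.8 to 349.1 CPM without *Spry1* reads and was higher in all mice but O1. *Emp1*, an epithelial membrane protein, had 666.8 and 943.3 CPM in Y4, 1079 and 1113 in Y5, 648.7 and 1479 in Y7, 1950 and 2517 in Y8, and in the old mice 3290 and 8399 in O1 and 3265 and 3824 in O5. It was lower in the cells with *Spry1* reads in all 6 mice (log2 fold change −0.61 ± 0.19, adjusted p = 1 by edgeR). *Etv5*, an ETS factor induced by FGF, had 17.9 to 312.8 against 13.9 to 105.7 CPM, higher in all mice but Y5 (1.48 ± 0.79), while *Etv4* was read in 1 cell. *Ccnd1*, cyclin D1, had 86.5 ± 94.9 against 138.7 ± 103 CPM (−2.08 ± 1.11).

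**Figure D3:**
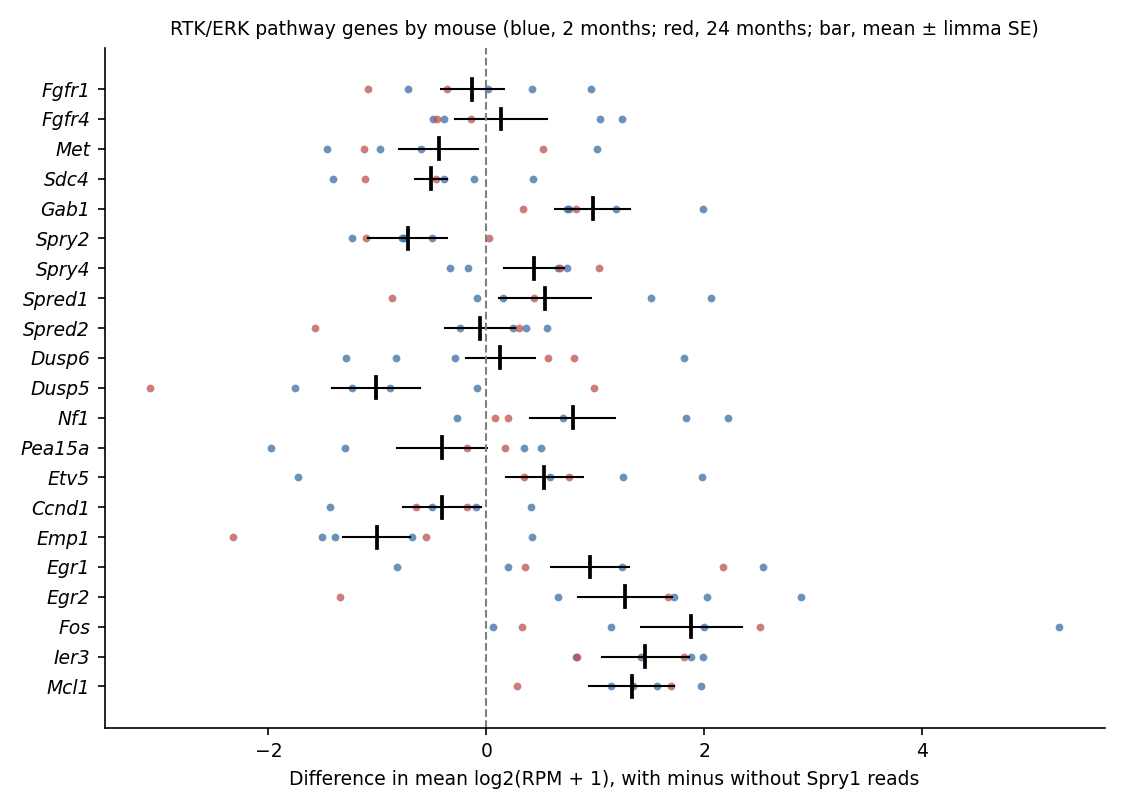
Difference in mean log2(RPM + 1) between cells with and without Spry1 reads for genes of the RTK/ERK pathway, 1 point per mouse (young blue, old red), with the mean as a bar and the limma standard error as a line. Egr1, Egr2, Fos, Ier3 and Mcl1 have means of 0.95 to 1.88, whereas Fgfr1, Fgfr4, Spred2 and Dusp6 have means within 0.14 of 0.

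Activation and differentiation genes were 41, of which 23 were tested. On the mean log scale 17 were higher and 6 lower, with a median of 0.22 against 0.01 over all genes. At an unadjusted p under 0.05 there were 4 higher and none lower, against 3.13% and 2.91% of all genes, and the 4 were *Myf5*, *Ncam1* and the inhibitors of differentiation *Id2* and *Id3*. *Myod1*, the factor that marks activation, had 842.6 ± 446 against 939.0 ± 501 CPM (SD, n = 6 mice, log2 fold change −0.15 ± 0.18). The proliferation gene *Mki67* was read in 1 and 4 cells, and *Mycn* in 6 and 4 cells. Of 26 Notch pathway genes 17 were tested, 12 higher and 5 lower on the mean log scale, of which 1 (*Dtx4*, 0.93 ± 0.44) was higher and none lower at an unadjusted p under 0.05, again against 3.13% and 2.91% of all genes. The ligand *Jag1* was lower in the sums of all 6 mice (29.7 ± 22.3 against 85.1 ± 36 CPM, −1.95 ± 0.75), although it was read in 26.1% and 24.8% of thinned cells. The effectors *Hes1* (−1.22 ± 1.44) and *Heyl* (0.21 ± 0.67) differed by less than their standard errors.

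**Figure D4:**
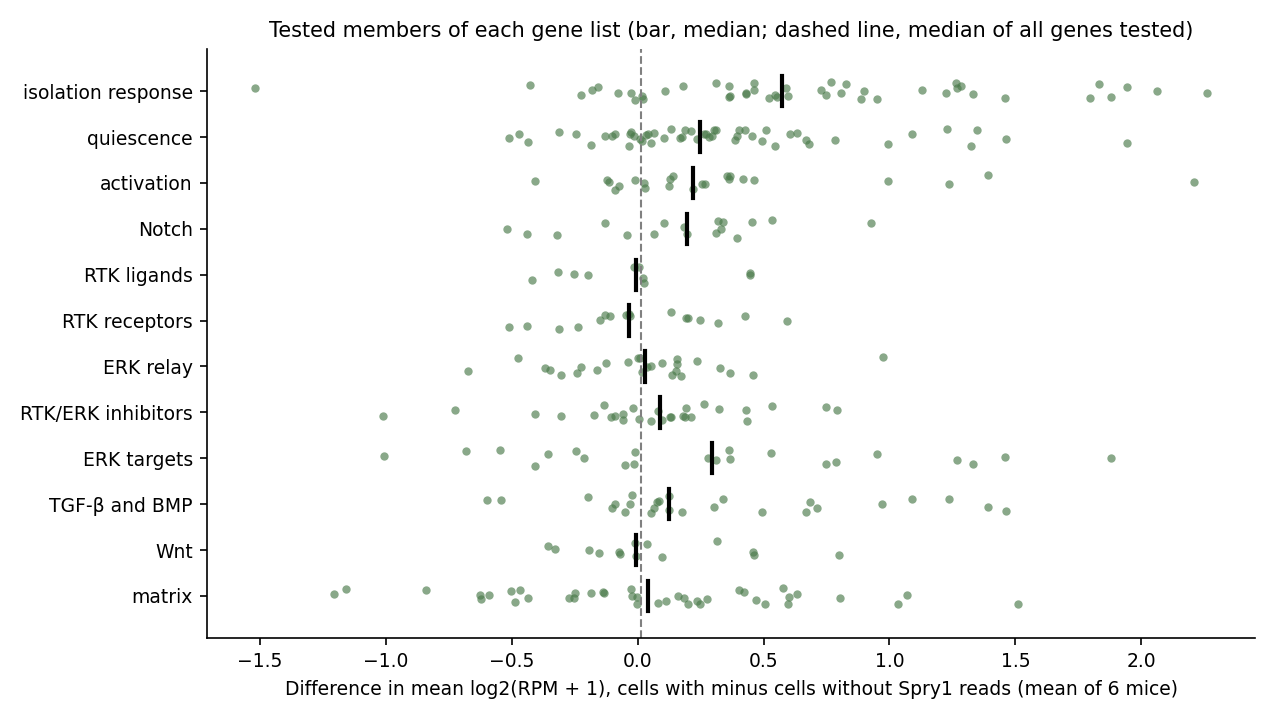
Difference in mean log2(RPM + 1) between cells with and without Spry1 reads for each tested member of 12 gene lists (points, mean of 6 mice) with the list median as a bar and the median of all 9637 genes as a dashed line at 0.01. The isolation list has the highest median, 0.57, followed by ERK targets with 0.30 and quiescence genes with 0.25, and RTK ligands, RTK receptors and Wnt genes lie near 0.

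For 4 further lists the counts at an unadjusted p under 0.05 on the mean log scale are to be read against 3.13% of all genes higher and 2.91% lower. TGF-β and BMP genes (26 of 33 tested) had 18 members higher and 8 lower, of which 6 and none were at that level, with a median of 0.12, and 1 of the 6, *Bmp4*, was higher in the sums of all 6 mice. Wnt genes (14 of 26 tested) had 6 higher and 8 lower, none at that level. Ribosomal protein genes (81 of 84 tested) had 51 higher and 30 lower, also none at that level, with a median of 0.05. Genes of the extracellular matrix (40 of 54 tested) had 20 higher and 20 lower, of which 5 and 3 were at that level, with a median of 0.04. *Timp1*, an inhibitor of matrix metalloproteinases, was lower in every mouse, with 8.1 and 90.5 CPM in Y4, 31.7 and 152.2 in Y5, 82.5 and 135.8 in Y7, 45.8 and 113.5 in Y8, and in the old mice 0 and 67.9 in O1 and 112.7 and 330.9 in O5. It was detected in 10.7% against 24.4% of thinned cells, and did not pass the test (adjusted p = 0.434 by limma on shares).

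*Ctgf*, the matricellular connective tissue growth factor, had the lowest unadjusted p among genes lower in all 6 mice. Its sums with and without *Spry1* reads were 27 and 381.2 CPM in Y4, 152.8 and 220.8 in Y5, 15.2 and 139.9 in Y7, 16.5 and 198.2 in Y8, and in the old mice 11.8 and 226.0 in O1 and 73.8 and 1138 in O5. The log2 fold change was −3.31 ± 0.53 (SE, adjusted p = 0.975 by edgeR), and without Y5, the mouse with the smallest gap, *Ctgf* was the 1 gene that edgeR called. A read of *Ctgf* was found in 16.8% of thinned cells with and 21.4% without *Spry1* reads. On the mean log scale it differed by −0.62 ± 0.32 (SE, unadjusted p = 0.0609 by limma), lower in 5 mice and higher in Y5. One cell held 25.5% of the reads of the group without *Spry1* reads. In the same gene family *Cyr61* was higher in the cells with *Spry1* reads in 4 of 6 mice (log2 fold change 1.11 ± 0.43).

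*Clic4*, a chloride intracellular channel protein, had 177.0 and 495.5 CPM in Y4, 194.4 and 282.7 in Y5, 257.5 and 587.6 in Y7, 290.3 and 669.9 in Y8, and in the old mice 127.3 and 372.5 in O1 and 441.5 and 728.4 in O5, lower with *Spry1* reads in every mouse (log2 fold change −1.12 ± 0.22, adjusted p = 0.975 by edgeR). Also among the 10 lower genes of lowest p were *Flnc*, filamin C of the cytoskeleton (1481 ± 1455 against 2172 ± 1961 CPM), *Osmr*, the oncostatin M receptor (1182 ± 733 against 1671 ± 992), *Tuba1c*, an α-tubulin (236.6 ± 110 against 430.0 ± 152), *Ivns1abp* (312.5 ± 77.8 against 570.1 ± 138) and *Ndst1*, an enzyme of heparan sulfate synthesis (61.8 ± 52.8 against 189.3 ± 123). *Ivns1abp*, a kelch protein, ranged from 222.7 to 442.2 against 431.0 to 811.4 CPM, so its groups overlapped only slightly. On the mean log scale *Flnc* differed by −0.48 ± 0.33 and *Tuba1c* by −0.64 ± 0.43 (SE, unadjusted p = 0.153 and 0.145 by limma). There *Flnc* was lower in 4 mice, *Tuba1c* and *Osmr* in 5, and *Clic4*, *Ivns1abp* and *Ndst1* in all 6. *Kctd9* (2 reads in 1 cell against 660 reads in 15 cells), *Mid2* (3 reads in 2 cells against 1338 in 10) and *Adamts12* (4 reads in 3 cells against 1450 in 17) were rare in both groups.

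*Odc1*, ornithine decarboxylase, which opens polyamine synthesis, was lower per cell in all 6 mice. Its mean log2(RPM + 1) with and without *Spry1* reads was 7.25 and 8.62 in Y4, 7.55 and 9.31 in Y5, 7.78 and 8.60 in Y7, 6.30 and 8.18 in Y8, and in the old mice 7.18 and 9.64 in O1 and 7.98 and 8.64 in O5. These groups did not overlap, and the difference was −1.49 ± 0.30 (SE, adjusted p = 0.0478 by limma). The share of all genes without overlap is not given here, for *Odc1* or for *Junb* and *Izumo4* above. *Asb5*, an ankyrin repeat and SOCS box protein of muscle (7237 ± 5124 against 9774 ± 6382 CPM, SD, n = 6 mice), differed per cell by −1.19 ± 0.25 (SE, adjusted p = 0.0478 by limma) and was lower in 5 of 6 mice, with Y7 at 0.60. In the sums the log2 fold changes were −0.49 ± 0.26 for *Odc1* and −0.62 ± 0.20 for *Asb5*. The sums of *Odc1* overlapped, at 1055 to 2070 CPM with and 1344 to 5575 CPM without *Spry1* reads. O5 was higher with *Spry1* reads (2070 against 1799 CPM). Without 1 mouse, *Odc1* kept its call by limma in 1 of 6 fits and *Asb5* in 3 of 6, with adjusted p up to 0.295 and 0.383. In cells matched on genes detected *Odc1* kept its call (adjusted p = 0.00166 by limma), *Asb5* lost it (0.762) and *Fos* gained one (0.00358).

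Young and old mice were fitted together to test whether the contrast differed with age. No gene passed the adjusted threshold by edgeR (0%), 508 of 9637 (5.27%) had an unadjusted p under 0.05, and DESeq2 called 374. Log2 fold changes in young and old mice were 0.96 and 1.03 for *Junb*, 1.12 and 1.16 for *Myf5*, 0.66 and 0.71 for *Egr1*, and −1.10 and −1.12 for *Clic4*. *Fos* had 1.36 and 0.42, *Gas1* 0.44 and 1.5, and *Vcam1* −0.12 and −1.5, with adjusted p-values of the difference of 0.909, 0.906 and 0.906 by edgeR. With 2 old mice these differences are imprecise. Both old mice were in sequencing lane 2 and all young mice but Y7 in lane 3, so age and lane cannot be fully told apart. By the sequencing lanes of the column names, *Junb* had 0.80 in lane 2 (Y7, O1 and O5) and 1.14 in lane 3 (Y4, Y5 and Y8), *Myf5* 1.18 and 1.06, *Fos* 0.71 and 1.36, *Egr1* 0.51 and 0.81, and *Ctgf* −3.80 and −2.73, all of the same direction in both lanes. Among 114 pairs of cells of the same mouse matched on genes detected, *Junb* had a log2 fold change of 1.42, *Fos* 1.61, *Egr1* 1.31 and *Myf5* 1.29, each larger than over all cells, whereas *Btg2* had 0.89 against 0.92 and *Asb5* −0.42 against −0.62. Requiring at least 10 *Spry1* reads left 118 cells, with 1.12 for *Myf5*, as over all cells, and smaller values of 0.91 for *Junb*, 0.85 for *Fos*, 0.72 for *Btg2* and 0.56 for *Egr1*.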

How the data were processed

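RNA of single Pax7-nGFP high muscle stem cells was sequenced together with DNA methylation, and only the RNA was used here. After trimming, the authors mapped reads to GRCm38 (HiSat2) and SeqMonk counted them per gene, and the deposited values are raw counts per gene and cell, without normalization. Which annotation release was used, and whether strand was, are not given in the sources used here, so overlapping genes (such as *Gm15270* with *Ctgf*) are uncertain. All 377 columns were mapped to a mouse by their names. Cells of 2 further mice were not analysed here. No 2 cells had identical counts.

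Cells with at least 1 *Spry1* read were compared with cells with 0 reads, in pairs from the same mouse, since both sums come from 1 animal. Counts were summed per mouse and kind of cell, *Spry1* was left out of the sums, genes were filtered by filterByExpr, and edgeR 4.0.16 (TMM, quasi-likelihood test, mouse as block) gave fold changes. DESeq2 1.42.0 and limma 3.58.1 (R 4.3.3) were alternatives, limma on mean log2(RPM + 1) per cell, with RPM computed here from the counts, and on detection shares of cells thinned to 100000 reads. Adjusted p is by Benjamini-Hochberg over all genes tested, with a threshold of 0.05. Per-cell measures used an exact permutation test in scipy 1.17.1 (Python 3.11.15). The scripts were tested on simulated counts, with a pass mark only for counts that varied far less than these data (common dispersion 1.39). That test does not show how many changed genes edgeR could find here. A cell had 101755 to 626142 reads. Promoters and positions come from RefSeq and GENCODE.

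Genes named were the 10 higher and 10 lower in all 6 mice of lowest p, since none passed the threshold, the 5 widest gaps in detection share in each direction, members of the pathway, quiescence, Notch and activation lists with an unadjusted p under 0.05, and a fixed set of 24 genes of these lists. *Odc1*, *Asb5* and other list members were named after their values were seen. The members, lists and rules were chosen with earlier results of these data known, so a list's direction is no independent evidence.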

Additional observations from a re-analysis of the deposited data

Results flagged for a closer look

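In 65 sets of values by mouse, nearly all of them differences between cells with and without *Spry1* reads, 7 had a mouse far from the other 5 by Dixon's test, which chance gives in about 1 set of 20. Values are log2 ratios of CPM plus 1. *Btg2* was 0.24 in Y8 against 0.90 to 1.15 in the other mice. *Ctgf* was −0.53 in Y5 against −4.15 to −3.12. *Spred2* was −6.14 in O1 against −0.68 to 0.92. *Etv5* was −2.50 in Y5 against 1.10 to 3.09, and *Calcr* −2.94 in Y8 against 0.44 to 1.68. *Cd34* was −6.50 in Y5, where the cells with *Spry1* reads had none of it, against −0.24 to 1.40. *Odc1* was −2.04 in O1 against −0.40 to 0.20, and without O1 its log2 fold change in the sums was −0.21 instead of −0.49, whereas its mean log2 difference was negative in all 6.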

How the results depend on the processing

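The count of genes called in the sums was 0 by edgeR in all settings but 1, with 272 genes at an unadjusted p under 0.05 and 1 call (*Ctgf*) without Y5, so that leaving out a mouse gave 0 to 1 calls. Without the replicate block on the mouse the count was also 0, with 170 genes at an unadjusted p under 0.05, and 202 were at that level among matched cells. DESeq2 called 242 genes and, for the difference between ages, 374, where edgeR called 0. The cause was not tested. Leaving out an old mouse in the test of age leaves 1, assumed to vary like the young mice, and gave 0 calls by edgeR, with 666 genes at an unadjusted p under 0.05 without O1 and 1184 without O5. On the mean log scale limma called 4 genes with a pseudocount of 1 RPM and 1 (*Junb*) with 10 RPM. Chosen after seeing the data, limma called 4 genes in cells matched on genes detected (*Junb*, *Myf5*, *Odc1* and *Fos*, without *Asb5*), 4 after thinning, 2 among genes read in 10% or more of the thinned cells, and 1 to 6 with a mouse left out. *Junb* was among the calls in each of these fits. The count was 1 without Y4 and without O1, 3 without Y5 and without Y7, 5 without O5 and 6 without Y8. Detection shares gave 0 calls in every setting, with 144 genes at an unadjusted p under 0.05 without the replicate block and 330 with it. No per-cell measure passed the test over 6 mice in any setting, and with 1 mouse left out the smallest p that the test allows is 0.0625, so those fits cannot show a difference. Of 1568 values of 55 named genes in the settings of the sums and of the mean log scale, 85 had the opposite sign, in 15 genes. None of these 15 had an unadjusted p under 0.05 by edgeR. Detection shares could differ in sign from the sums also for genes under that level. *Jag1* and *Sdc4* had negative log2 fold changes but shares higher by 1.23 and 0.29 points. Genes of few cells could not be compared in matched or thinned cells. A cell without *Spry1* reads may hold up to 3 reads' worth of it at its depth by counting error alone. It may hold more where transcripts were lost before amplification, which was not measured.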
